A study of Mus musculus with 6 samples.

Results

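The 7 genes described here encode the aryl hydrocarbon receptor (Ahr), its DNA-binding partner (Arnt), the chaperone partners that hold the unliganded receptor (Hsp90aa1, Hsp90ab1 and Ptges3) and a pair of coactivators (Ncoa1 and Ncoa2). They were named by gene symbol, and a probe set was taken only where the platform annotation gave it exactly 1 symbol. By that rule 5 of the 7 were measured, with 10 probe sets in all, among 12393 genes on 6 arrays. Hsp90ab1 had no probe set of its own name, and the 2 probe sets of Ptges3 also carried the name of a pseudogene, so both genes are not analysed here. Each measured gene is described by its brightest probe set (largest mean of the 6 arrays), and its other probe sets are given beside it.

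The cells were CD4-CD8- (DN) cells of C57BL/6 fetal thymus lobes, taken at day 15 of gestation and kept for 6 days as organ cultures, a system in which an isolated lobe goes on making T cells. The medium held 10 nM TCDD (2,3,7,8-tetrachlorodibenzo-p-dioxin), a long-lived AHR ligand, or the solvent dioxane, given as 0.1% for thymocytes only. Thymocytes came from inside the washed lobes (1 array with dioxane, 1 with TCDD). Emigrants came from the buffer flushed off the lobes (2 arrays with dioxane, 2 with TCDD, numbered 1 and 2 here). The labels number both TCDD emigrant arrays, but 1 dioxane emigrant array has no number in its label and is taken here as number 1. All mice were of the same strain with no stated genetic change, the stated age was day 21 after conception, and each RNA was amplified from pooled cells enriched with magnetic beads to over 95%. Of the coreceptor genes that define DN cells by their absence, Cd8b1 was below the background level defined further on, on every array, while Cd8a was above it on 4 arrays (4.62 to 5.50 over all 6) and Cd4 on 6 (4.93 to 5.19). Thymocytes, emigrants numbered 1 and emigrants numbered 2 thus gave 3 pairs of TCDD and dioxane arrays. No source says that the arrays of a group, or those with the same number, came from separate or shared cultures, so a p-value here reflects nothing more than how much these arrays varied, and that variation may be technical.

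In the absence of ligand AHR sits in the cytosol in a complex with HSP90 and the co-chaperone p23 (the product of Ptges3). Ligand binding moves the receptor to the nucleus, where it leaves HSP90, pairs with ARNT and binds the core motif GCGTG. Coactivators of the NCOA family then help to start transcription of targets such as Cyp1a1, and the receptor is afterwards exported and degraded. The receptor is a protein whose amount and location these RNA measurements do not show.

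The motif that the AHR and ARNT dimer reads is printed here from the promoters of Arnt and of 4 target genes, because it is the link between the members and the genes whose values stand beside them further on. The windows come from RefSeq (GRCm38.p6), 5′ to 3′ on the strand of the gene, with the motif, or its reverse complement CACGC, in capitals and up to 20 bases on each side.
Arnt: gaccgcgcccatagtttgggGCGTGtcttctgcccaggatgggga
Cyp1a1: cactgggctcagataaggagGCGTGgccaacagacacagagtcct
Cyp1b1: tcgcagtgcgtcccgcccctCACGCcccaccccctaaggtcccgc
Tiparp: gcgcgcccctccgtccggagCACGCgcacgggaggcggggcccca
Ahrr: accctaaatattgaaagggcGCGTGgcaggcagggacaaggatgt
They lie at chr3:95434341-95434385 on the plus strand (Arnt), chr9:57697539-57697583 on the plus strand (Cyp1a1), chr17:79715113-79715157 on the minus strand (Cyp1b1), chr3:65528257-65528301 on the plus strand (Tiparp) and chr13:74292414-74292458 on the minus strand (Ahrr). In the 250 bases before the start, the motif was found on either strand 1 time in Arnt, Cyp1a1, Cyp1b1 and Tiparp, 2 times in Ncoa1 and Ptges3, and 3 times in Ahrr, of which 1 is shown. It occurred in 28.2% of the 32851 windows of that length in the table (9250 windows), so a match alone is a description of the letters and not of binding. Of the 7 members, Arnt, Ptges3 and Ncoa1 were in the table. Ahr, Hsp90aa1, Hsp90ab1 and Ncoa2 were not.

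Values are on the log2 scale, so 1 unit is a doubling on the linear scale, and levels of different probe sets cannot be set against each other. The 27 probe sets for bacterial transcripts that serve here as blanks had medians of 3.02 to 3.26 and highest values of 4.32 to 4.92 per array, and a value under that highest blank cannot be told from background. Both Ahr and Hsp90aa1 stood above it on all 6 arrays, as did 53.7% of genes. Arnt was above it on 1 array, Ncoa1 on 4 and Ncoa2 on 0. The emigrant arrays numbered 1 stood apart: the median of 13 macrophage and dendritic cell genes was 8.79 and 9.07 there, against 5.61 to 8.66 on the rest, that of 11 granulocyte and mast cell genes was 8.10 and 10.06 against 4.93 to 6.05, and that of 6 erythroid genes was 6.35 and 6.65 against 4.40 to 4.61. The median of 13 markers of the DN T lineage was 6.48 and 5.97 on these arrays and 7.06 to 9.41 on the others. Thymic epithelial markers had medians of 4.29 to 4.57, with Foxn1, Krt14 and Ly75 below the highest blank on every array, Krt5 and Krt8 above it on 5 arrays each and Epcam above it on 6, at 6.67 and 7.35 in thymocytes and 4.89 to 5.69 in emigrants. The median of 9 fibroblast and endothelial genes was 5.58 and 5.87 in thymocytes, 4.33 and 4.60 in emigrants numbered 1, then 4.31 and 6.00 in those numbered 2, dioxane first, with Col3a1, a fibrillar collagen, at 5.18 and 9.67 in the last pair. TCDD emigrants 2 also differed from dioxane emigrants 2 in the macrophage median (8.66 against 6.69) and the T-lineage median (7.06 against 8.97), and the part of these shifts in the differences of that pair was not tested. Spiked hybridisation controls read lower on the dioxane thymocyte array (median 7.11) than on the other 5 (8.21 to 8.82). In such mixtures fewer cells of a type and less RNA per cell cannot be told apart.

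Ahr, the receptor itself, was lower with TCDD in each of the 3 pairs and lowest on the emigrant arrays numbered 1. Each pair difference was smaller than the gap between the 2 emigrant arrays of either treatment. It measured 9.10 with dioxane and 8.93 with TCDD in thymocytes. The emigrant arrays numbered 1 gave 8.05 and 7.09, and those numbered 2 gave 9.08 and 8.56. The order of the arrays was therefore dioxane thymocytes, dioxane emigrants 2, TCDD thymocytes, TCDD emigrants 2, dioxane emigrants 1 and TCDD emigrants 1. Steps between neighbours in that order were under the SD of 0.73 between the dioxane emigrant arrays, except the last, which was 0.96 against an SD of 1.04 between the TCDD emigrant arrays. As a fold, the dioxane level was 1.13 times the TCDD level in thymocytes, 1.95 times in emigrants numbered 1 and 1.44 times in emigrants numbered 2. The TCDD and dioxane arrays overlapped, since the TCDD thymocyte array read above the dioxane emigrant array numbered 1.

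**Figure D1:**
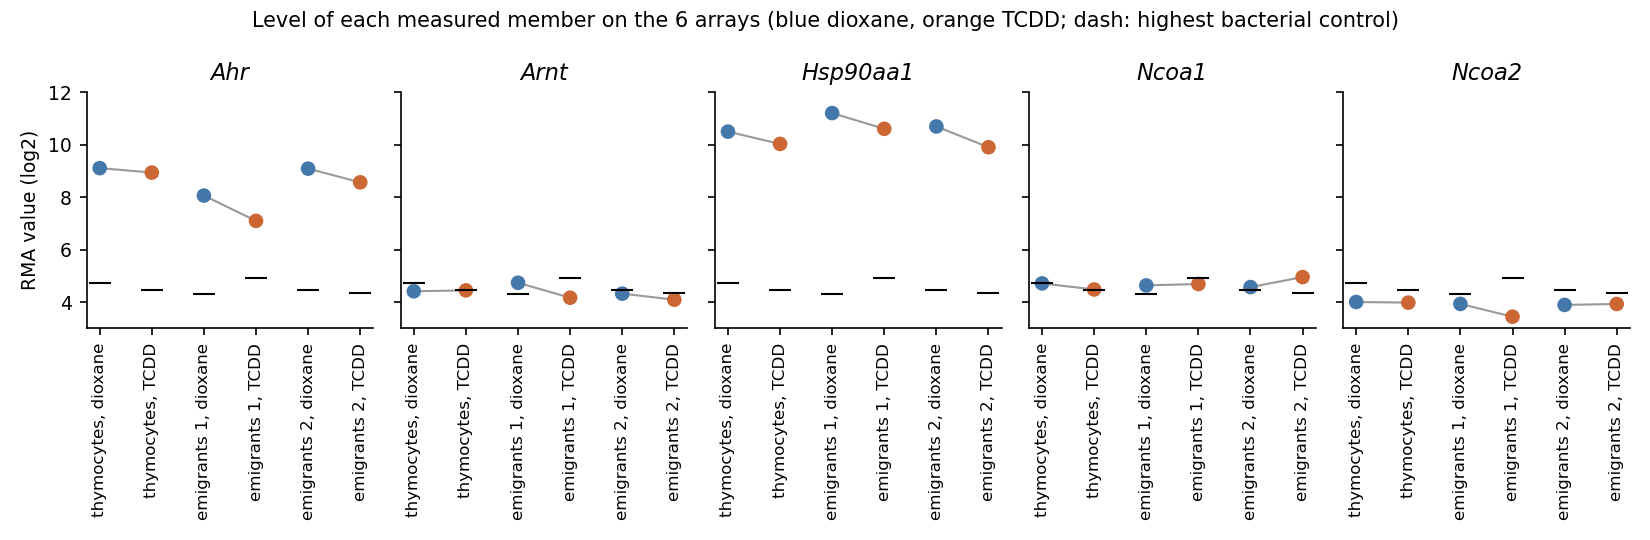
Log2 RMA value (y axis) of the 5 measured members on each of the 6 arrays (x axis), with dioxane in blue, TCDD in orange, a line joining each pair and a dash at the highest bacterial control of that array. By the probe sets used, Ahr and Hsp90aa1 stand above the dashes on all 6 arrays, with the TCDD point below the dioxane point in each pair. Arnt is above on 1 array, Ncoa1 on 4 and Ncoa2 on 0.

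Over both sources, with cell source in the model, Ahr was lower with TCDD by a log2 difference of -0.55 ± 0.48 (SE, 3 arrays against 3; 95% interval -1.74 to 0.64), and limma gave an adjusted p of 0.999 over all genes. In emigrants alone the difference was -0.74 ± 0.63 (SE, 2 against 2; limma adjusted p = 1.00). The size depended on single emigrant arrays. Over both sources it was -0.08 when TCDD emigrants 1 were left out, -0.20 when dioxane emigrants 2 were, -0.92 when TCDD emigrants 2 were, and -0.35 with both arrays numbered 1 omitted, and in emigrants alone it ran from -1.48 to -0.008 over the omissions. A more negative difference than that of Ahr was found for 25.8% of genes in thymocytes, 2.90% in the first emigrant pair and 7.67% in the other. Probe sets at the 3' and 5' ends of actin differ more where RNA is shorter or amplified less fully, and their difference was larger with TCDD in the same 3 pairs, at 4.15 against 3.48, 3.77 against 3.06 and 3.36 against 3.01. The same measure for Gapdh did not follow this order: it was 5.86 with TCDD against 6.10 with dioxane in thymocytes, 5.60 against 4.75 in the first emigrant pair and 4.75 against 4.69 in the other. The part of either in the result was not tested.

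The second Ahr probe set, designed on the same sequence record, was dim and gave 4.81 and 4.80 in thymocytes, 5.18 and 4.74 in emigrants numbered 1, then 4.74 and 4.65 in those numbered 2, dioxane first. It was above the highest blank on 5 arrays, and its difference over both sources was -0.18 ± 0.18 (SE, 3 against 3). Both Ahr probe sets were thus lower with TCDD in each pair, the dim one by 0.006 in thymocytes, where the arrays were level. They did not share the low level in emigrants numbered 1, where the dim probe set had its highest value with dioxane.

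Arnt, the dimer partner that also serves the hypoxia factors, read near background on every array, so its differences are bounded. The values were 4.41 with dioxane and 4.45 with TCDD in thymocytes, 4.74 and 4.17 in emigrants numbered 1, then 4.32 and 4.09 in those numbered 2. The 1 array above its highest blank (4.32) was dioxane emigrants 1. With TCDD the level was lower in both emigrant pairs and 0.03 higher in thymocytes, and over both sources the difference was -0.26 ± 0.19 (SE, 3 against 3; limma adjusted p = 0.999). It was -0.095 when dioxane emigrants 1 were left out and -0.40 when either thymocyte array was. The other probe set of Arnt stayed at 3.29 to 3.69, under the highest blank on all 6 arrays. By that cutoff, the Arnt probe set used was thus not separable from background on 5 of the 6 arrays, which does not show that the RNA was absent.

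Hsp90aa1, the stress-inducible cytosolic HSP90 that keeps the receptor ready for ligand, was lower with TCDD in each pair by the probe set used. Dioxane and TCDD arrays gave 10.49 and 10.02 in thymocytes, 11.20 and 10.60 in emigrants numbered 1, then 10.69 and 9.90 in those numbered 2. The pair differences of -0.47, -0.60 and -0.79 lay close together, although the groups overlapped because the TCDD emigrant array numbered 1 read above the dioxane thymocyte array. In the fit over both sources the difference was -0.62 ± 0.26 (SE, 3 against 3; 95% interval -1.27 to 0.03), with an unadjusted limma p of 0.0571 and an adjusted p of 0.943. In emigrants alone it was -0.69 ± 0.36 (SE, 2 against 2; limma adjusted p = 1.00). Without both arrays numbered 1 the difference over both sources was -0.63, and leaving out any 1 array gave -0.80 to -0.40.

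The other 2 probe sets of Hsp90aa1 did not share that direction in every pair, so no direction is given for the gene. The second in brightness was higher with TCDD in all 3 pairs: 8.75 with dioxane and 8.91 with TCDD in thymocytes, 8.30 and 9.88 in emigrants numbered 1, then 7.06 and 7.63 in those numbered 2. The third was lower in thymocytes (7.51 and 5.93) and in emigrants numbered 2 (7.61 and 6.59) but higher in emigrants numbered 1 (8.17 and 8.77). Over both sources the second differed by 0.77 ± 0.67 and the third by -0.67 ± 0.63 (SE, 3 against 3), and the mean of the 3 probe sets by -0.17 ± 0.50. They spanned 2.82 and 2.84 log2 units over the arrays, against 1.30 for the probe set used, and both had their highest value on the TCDD emigrant array numbered 1. All 3 were above the highest blank on all 6 arrays.

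**Figure D2:**
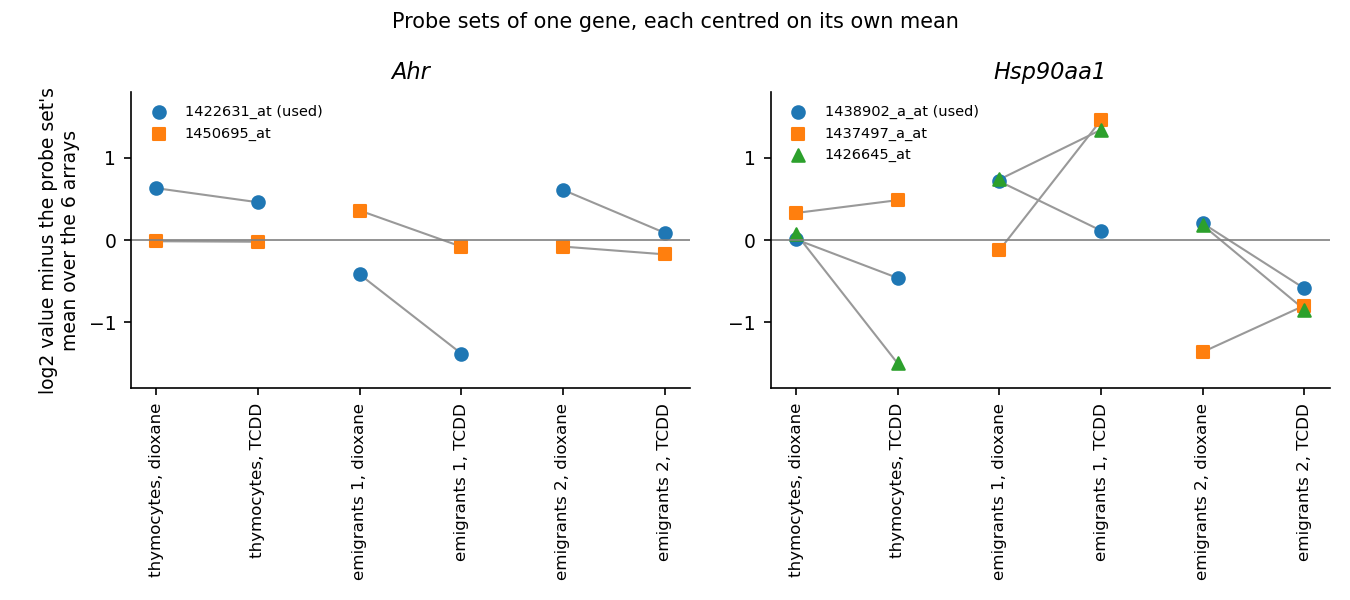
Log2 value of each probe set minus its own mean over the 6 arrays (y axis) for Ahr (2 probe sets) and Hsp90aa1 (3 probe sets) on each array (x axis), with lines joining the dioxane and TCDD arrays of a pair. The Ahr lines slope down or lie flat, while the Hsp90aa1 lines run in opposite directions, most clearly in emigrants numbered 1, where the second in brightness is higher with TCDD by 1.58 and the one used is lower by 0.60.

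Of the coactivators, Ncoa1 (SRC-1) hardly varied and Ncoa2 (GRIP-1) read below the highest blank on all arrays. Ncoa1 measured 4.71 with dioxane and 4.48 with TCDD in thymocytes, 4.64 and 4.69 in emigrants numbered 1, then 4.57 and 4.95 in those numbered 2. Its difference over both sources was 0.07 ± 0.18 (SE, 3 against 3; 95% interval -0.38 to 0.51; limma adjusted p = 0.999). The second Ncoa1 probe set lay at 4.30 to 4.79 and differed by 0.16 ± 0.17. Ncoa2 gave 3.98 with TCDD in thymocytes and was 0.024 higher with dioxane, 3.93 and 3.44 in emigrants numbered 1, then 3.89 and 3.93 in those numbered 2. The 1 low array was TCDD emigrants 1, and the difference over both sources of -0.16 ± 0.19 (SE, 3 against 3; limma adjusted p = 0.999) was 0.0057 without both arrays numbered 1.

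Among the members as a group, 2 of the 5 measured members (Ahr and Hsp90aa1) were lower with TCDD in all 3 pairs by the probe set used, where 17.4% of all genes were, and 0 were higher in all 3, where 15.4% were. For 0 of the 5 did all 3 TCDD arrays lie below all 3 dioxane arrays (4.61% of genes) or above them (3.47%). The fit over both sources had no replicate block (fits with a block are given at the end). In it limma called 0 members and 0 of 12393 genes (0%, with a smallest adjusted p over all genes of 0.483). At an unadjusted p under 0.05 limma held 0 members and 659 genes (5.32%). In emigrants it also called 0 genes (0%), with 255 at an unadjusted p under 0.05 (2.06%) and 0 members among them. 0 of the 5 were lower with TCDD by at least 1 log2 unit in a pair, against 2.79% of genes in thymocytes, 2.56% in the first emigrant pair and 2.16% in the other, and 0 were higher by as much, against 2.83%, 3.66% and 3.43%. Ahr varied more over the 6 arrays than 92.7% of genes (range 2.01, against a median of 0.73) and Hsp90aa1 more than 79.1%, and these 2 were the members with a range of at least 1 log2 unit, as 33.1% of genes had.

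**Figure D3:**
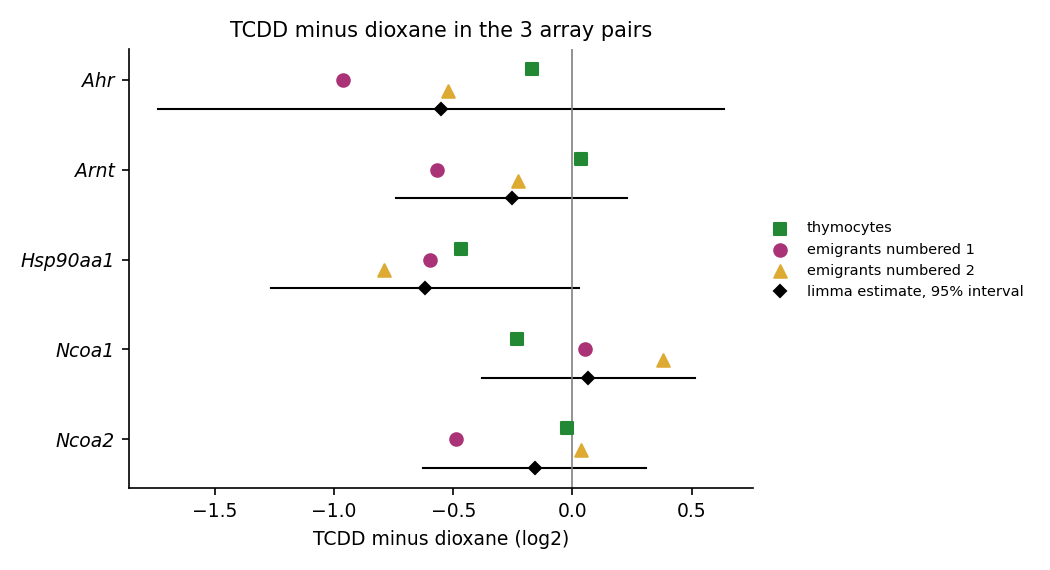
TCDD minus dioxane in log2 units (x axis) for the 5 measured members (y axis), as a square for thymocytes, a circle for emigrants numbered 1 and a triangle for emigrants numbered 2, with the limma estimate over both sources as a black diamond and its 95% interval as a line. By the probe sets used, all 3 symbols lie left of 0 for Ahr and Hsp90aa1, and all 5 intervals cross 0. The second probe set of Hsp90aa1, not drawn, was higher with TCDD in all 3 pairs.

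Between the cell sources, Ahr was lower in emigrants by the probe set used, at -0.82 ± 0.50 (SE, 4 arrays against 2, treatment in the model; limma adjusted p = 0.884), with the low values on the arrays numbered 1. The dim Ahr probe set did not share this: it differed by 0.024 ± 0.19 (SE) and was highest on dioxane emigrants 1 (5.18). Against the thymocyte array of the same treatment the probe set used differed by -1.05 (dioxane) and -1.84 (TCDD) on the arrays numbered 1 and by -0.02 and -0.37 on those numbered 2. Without the arrays numbered 1 the fit gave -0.20, and without those numbered 2 it gave -1.44 (limma adjusted p = 0.0989). On these low arrays the T-lineage markers were also low (medians 6.48 and 5.97) and the macrophage markers high (8.79 and 9.07). On TCDD emigrants 2, however, the macrophage median was 8.66 and the T-lineage median 7.06, with Ahr at 8.56. The part of these markers in the Ahr level was not tested. Both arrays numbered 1 lay below the other 4 for Ahr, as for 13.6% of genes, and 0 members had both above the other 4 (16.1%).

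Hsp90aa1 was higher in emigrants by 0.34 ± 0.27 (SE, 4 against 2; limma adjusted p = 0.954), and the difference was 0.03 without the arrays numbered 1. Its second probe set ran the other way, at -0.61 ± 0.71, and the third the same way, at 1.06 ± 0.67. Arnt (-0.10 ± 0.21), Ncoa1 (0.12 ± 0.19) and Ncoa2 (-0.19 ± 0.20) did not pass either. All 4 emigrant arrays read below both thymocyte arrays for Ncoa2 (10.8% of genes), by 0.05 at the closest and under background, and all 4 read above both for 0 members (5.46%). limma called 0 genes between the sources (0%), with 880 at an unadjusted p under 0.05 (7.1%) and 0 members among them. The TCDD difference in emigrants minus that in thymocytes was -0.57 ± 1.09 for Ahr and -0.23 ± 0.62 for Hsp90aa1, with 0 genes called (0%) and 97 at an unadjusted p under 0.05 (0.783%). The 95% interval for Ahr was -3.44 to 2.30, so a several-fold difference was not detectable here.

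The wider chaperone system that serves AHR and other clients differed in direction from pair to pair. Of 18 measured chaperones and co-chaperones, Hsp90aa1 included and all above the highest blank on every array, 16 were lower with TCDD in thymocytes (median -0.44), 12 were higher in emigrants numbered 1 (median 0.45) and 15 were lower in emigrants numbered 2 (median -0.37). Over all genes 51.5%, 48.2% and 45.3% were higher in these pairs, with medians of 0.01, -0.02 and -0.02. In the fit over both sources 12 were lower and 6 higher (median -0.18, all genes -0.02), with 0 called in either direction, and without the arrays numbered 1 there were 15 lower and 3 higher (median -0.44, all genes -0.004). Of all genes, 47.2% were higher in the fit over both sources and 49.2% without the arrays numbered 1, for this and the following lists. The emigrant pair numbered 1 also differed in granulocyte and mast cell genes (median 8.10 with dioxane and 10.06 with TCDD), and the pair numbered 2 in macrophage genes (6.69 and 8.66). Their part in these counts was not tested.

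Hspd1, the mitochondrial HSP60, differed by -0.74 ± 0.32 (SE, 3 against 3), and was 11.72 with dioxane and 10.83 with TCDD in thymocytes, 11.99 and 11.72 in emigrants numbered 1, then 11.68 and 10.62 in those numbered 2. Dnajb1, an HSP40 co-chaperone, was lower in each pair (-0.63, -0.74 and -0.48), but its 2 probe sets differed in sign. Fkbp5, an immunophilin of steroid receptor complexes, differed by -0.92 ± 0.78, with -1.77 in emigrants numbered 2. Ahsa1, which stimulates the HSP90 ATPase, went the other way and was higher in all 3 pairs (0.63, 1.20 and 0.29; 0.71 ± 0.26). Trap1, the mitochondrial HSP90, was higher by 1.59 in emigrants numbered 1 and lower by 0.57 in emigrants numbered 2, and Stub1, a ubiquitin ligase for chaperone clients, differed by 0.25 ± 0.29. The probe sets of Trap1 differed in sign. These 6 genes were picked as the 3 largest differences in each direction over both sources, so both signs were set by the choice. None passed (limma adjusted p 0.811 to 0.999).

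**Figure D4:**
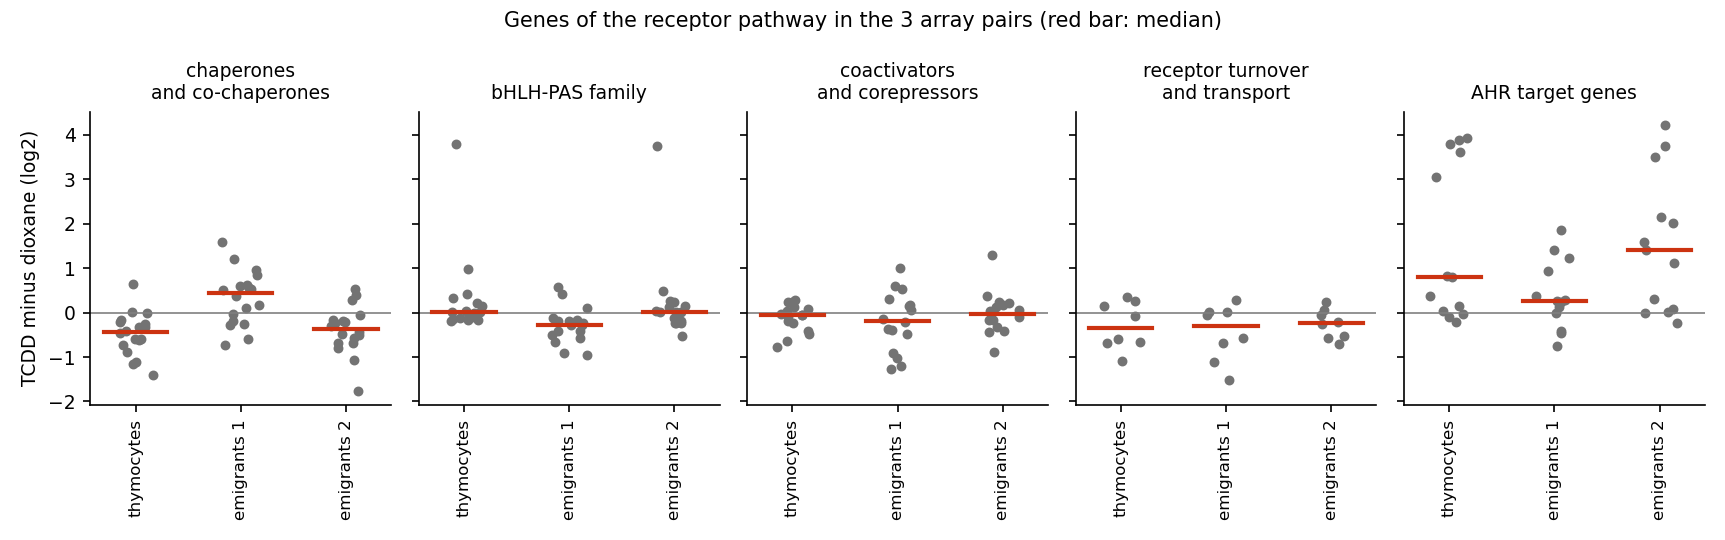
TCDD minus dioxane in log2 units (y axis) in the 3 pairs (x axis) for every measured gene of 5 lists, 1 point per gene and a red bar at the median. The chaperone median is -0.44, 0.45 and -0.37, and the median of AHR target genes is 0.80, 0.25 and 1.42, in thymocytes, emigrants numbered 1 and emigrants numbered 2.

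Within the bHLH-PAS family, to which AHR and ARNT belong, Ahrr, the repressor that competes for ARNT, had the largest difference over both sources, 2.37 ± 0.98 (SE, 3 against 3; limma adjusted p = 0.939), and was above the highest blank on 3 arrays. It measured 4.05 with dioxane and 7.84 with TCDD in thymocytes, 4.45 and 4.04 in emigrants numbered 1, then 3.76 and 7.50 in those numbered 2. Of the 17 measured members of the family, 6 were higher and 11 lower over both sources, where 47.2% of all genes were higher. The median was -0.03 (all genes -0.02), with 0 called in either direction, and 7 were above the highest blank on all arrays. Without the arrays numbered 1 there were 9 higher and 8 lower (median 0.01). Arnt2, a paralogue of Arnt, differed by -0.17 ± 0.18, Hif3a, a hypoxia factor, by -0.16 ± 0.25, and Per3 of the circadian clock by -0.13 ± 0.15 (SE, 3 against 3). Npas1 differed by 0.22 ± 0.16 and Epas1 (HIF2A) by 0.08 ± 0.21 (SE, 3 against 3). Npas1 and Epas1 were under the highest blank on every array, and the probe sets of Hif3a differed in sign.

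Among 16 measured coactivators and corepressors, 6 were higher and 10 lower over both sources, where 47.2% of all genes were higher. The list had 0 called and a median of -0.10 (all genes -0.02). Without the arrays numbered 1, 8 were higher and 8 lower (median -0.03). Med1, a Mediator subunit, differed by -0.49 ± 0.30 and Rb1, the retinoblastoma protein, by -0.46 ± 0.29, and both were lower in the emigrant pairs (-1.28 and -0.44 for Med1, -1.20 and -0.32 for Rb1, against 0.24 and 0.14 in thymocytes). Smarca4, the BRG1 remodelling ATPase, differed by -0.37 ± 0.55, Prmt1, an arginine methyltransferase, by 0.29 ± 0.33, Nrip1, a corepressor, by 0.25 ± 0.35, and Hdac1, a deacetylase, by 0.16 ± 0.50. The probe sets of Med1, Smarca4 and Nrip1 differed in sign.

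Genes of receptor turnover and nuclear transport were lower in 7 of 8 measured members over both sources, where 47.2% of all genes were higher. The median was -0.29 (all genes -0.02), with 0 called in either direction. Under median centring or cyclic loess 6 of the 8 were lower. Without the arrays numbered 1, 5 were lower and 3 higher (median -0.31). Cul4b, the scaffold of a ubiquitin ligase that AHR has been linked to, was lower in each pair, at 8.62 with dioxane and 8.02 with TCDD in thymocytes, 9.05 and 7.54 in emigrants numbered 1, then 8.81 and 8.29 in those numbered 2 (-0.88 ± 0.25; unadjusted p = 0.0149, limma adjusted p = 0.811). Xpo1, the exportin that carries AHR out of the nucleus, was lower by nearly the same amount in each pair (-0.65, -0.57 and -0.57; -0.60 ± 0.23, limma adjusted p = 0.915). Kpnb1, an importin, differed by -0.61 ± 0.27, with probe sets of differing sign, and Src, a kinase tied to the cytosolic AHR complex, by 0.11 ± 0.22. The probe sets of Src differed in sign as well.

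The targets of the receptor were higher with TCDD in most cases, with sizes that differed between pairs. Of 13 measured targets 12 were higher with TCDD over both sources, where 47.2% of all genes were higher. The targets had a median of 0.99 (all genes -0.02), with 0 called in either direction. The 12 include Lrat (0.03), Fgf21 (0.05) and Aldh3a1 (0.07), named here because their differences were small. Of the 13, 4 were above the highest blank on all arrays, and 5 had an unadjusted limma p under 0.05 (5.32% of genes). Without the arrays numbered 1, 9 were higher and 4 lower (median 0.78). The list's median was 0.80 for thymocytes, 0.25 for the first emigrant pair and 1.42 for the other, where Ahr with TCDD read 8.93, 7.09 and 8.56. Cyp1a1, the classical inducible monooxygenase, differed by 3.89, 0.25 and 2.14 in these pairs, Cyp1b1, a related enzyme, by 3.62, 1.24 and 4.23, and Tiparp, an ADP-ribosyltransferase that dampens AHR, by 3.06, -0.0054 and 3.50, of which the second became 0.02 under median centring. Scin, an actin-severing protein, differed by 3.93, 1.85 and 2.02, and Cyp1a2, near background, by -0.11, -0.46 and 0.07. Of the 13 targets, 8 had their lowest difference in emigrants numbered 1 and 3 had their highest there. Xdh, xanthine dehydrogenase, differed by 0.80, 0.94 and 1.60 and Serpinb2, a protease inhibitor, by 0.15, 1.41 and 1.42, so they were lowest in thymocytes (both genes were picked after their values were seen). Cyp1a1 was above the highest blank on 2 arrays, those of TCDD thymocytes and TCDD emigrants 2, so its 0.25 in emigrants numbered 1 lies between values at background (3.96 and 4.22). With 3 pairs no relation to the Ahr level was tested.

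Genes whose pattern over the 6 arrays was closest to that of Ahr were Serinc1, Pag1 and Zfp955b, which after each gene's own mean was taken off differed from it by a root mean square of 0.14, 0.16 and 0.17 log2 units. Ahr's own SD over the 6 arrays was 0.78, and 6115 genes at or above the median level were searched. Serinc1 measured 9.62 and 9.70 in thymocytes, 8.62 and 7.71 in emigrants numbered 1, then 9.91 and 9.45 in those numbered 2, dioxane first. It was picked for its closeness to Ahr, so the low arrays numbered 1 that it shares come with the choice. The closest to Hsp90aa1 were Plk1, a mitotic kinase (0.12), Pot1a, a telomere protein (0.13), and Ssr1, part of the translocon (0.13), against an SD of 0.47. Around the members near background the nearest genes were Lrrc56, Slc2a4 and Mrfap1 for Arnt (each 0.06), Armcx3, Uap1l1 and Herc2 for Ncoa1 (0.07 to 0.08) and Cdkal1, Chmp5 and Ctdsp1 for Ncoa2 (0.03 to 0.04).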

How the data were processed

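The deposited values are RMA summaries on the log2 scale, per the submitters' processing notes, made by the authors with the Bioconductor affy package, per the series design text. Its version is not given in the sources used here. As usually run, RMA corrects background, normalises arrays to a shared distribution and summarises probes. It gives no detection calls and understates differences of dim genes. Values were used as deposited: 22690 probe sets on 6 arrays, of which 64 were controls, 691 had several genes, 1555 had none and 20380 had 1 symbol, giving 12393 genes. Of these, 4956 had over 1 probe set.

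limma 3.58.1 in R 4.3.3 (lmFit, eBayes) was fitted to all genes, with Benjamini-Hochberg adjustment and calls at an adjusted p under 0.05. Residual degrees of freedom were 3 (both sources, cell source), 2 (emigrants), 3 (emigrants against thymocytes) and 2 (difference of effects), and a lone array is assumed to vary like the others. The code was tested on simulated data with known changes. The number of arrays limits the precision.

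Apart from cell type markers and controls, the genes named were all members, the 3 nearest patterns per member and genes of the lists. From each list came the 3 largest differences in each direction over both sources, plus Cyp1a1, Cyp1b1, Ahrr and Tiparp. Lrat, Fgf21, Aldh3a1, Xdh and Serpinb2 fell outside that rule and were picked after their values were seen. Members and lists were chosen with earlier results of these data known. Alternatives were other scalings, filters, priors, probe set rules, thresholds and covariates, a block and the omission of arrays. The joint omission of same-numbered arrays was chosen after seeing the data.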

Additional observations from a re-analysis of the deposited data

Results flagged for a closer look

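By the probe set used, both Arnt and Ncoa1 took opposite signs in the cell sources, which is why they are listed. The second Ncoa1 probe set did not: it was higher with TCDD in thymocytes (0.05) and in both emigrant pairs (0.08 and 0.36). The second Arnt probe set, under the highest blank on every array, kept the signs of the first (0.13, -0.40 and -0.04). The values that follow are those of the probe sets used. Arnt was 0.034 higher with TCDD in thymocytes and lower in both emigrant pairs (-0.57 and -0.23), and Ncoa1 was lower by -0.23 in thymocytes and higher in both emigrant pairs (0.05 and 0.38). The difference between the sources did not pass for either (-0.43 ± 0.45 and 0.45 ± 0.41, SE; limma adjusted p = 1.00 for both), the thymocytes had 1 array per treatment, and both genes read near background.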

How the results depend on the processing

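Under the alternatives a member's difference kept its direction and its side of the threshold 269 times and reversed 19 times, and no member passed. The first count includes settings that could not reverse a direction. Changing the prior, the level filter, the covariate or the block left the difference itself as it was. Leaving out either thymocyte array turned the fit over both sources into the emigrant fit. Hsp90aa1 by the second probe set gave 0.77 over both sources, 1.07 in emigrants, -0.61 between the sources and 0.92 for the difference of effects, by the third 1.37 for the last, and as the mean of all probe sets 0.055 in emigrants and 0.69 for the difference of effects. Ahr by its dim probe set gave 0.024 between the sources. Without both arrays numbered 1, Ncoa2 gave 0.0057 over both sources, and without both numbered 2 Ncoa1 gave -0.089 over both sources and Arnt 0.022 between the sources. The cause was not tested.

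Leaving out 1 array in turn gave these ranges. Over both sources Ncoa1 lay between -0.051 and 0.22, and in emigrants Ncoa2 between -0.47 and 0.017. Between the sources Arnt ran from -0.32 to 0.12 and Ncoa1 from -0.11 to 0.34. For the difference of effects the ranges were -1.30 to 0.16 for Ahr, -0.58 to 0.13 for Hsp90aa1 and -0.44 to 0.040 for Ncoa2.

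Counts of called genes were 0 in each comparison and stayed 0 under the other scalings, priors, filter and probe set rules. At an unadjusted p under 0.05 they were 659, 255, 880 and 97. Between the sources 7 genes were called without the dioxane emigrant array numbered 2 (0 to 7 over the omissions) and 225 without both arrays numbered 2, none of them a member. No value came from leaving out a thymocyte array for the difference of effects, which then cannot be fitted.

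The emigrant arrays of the same number deviated together across genes (r = 0.56), but 2 numbered pairs do not establish a pairing. With a replicate block the difference over both sources was -0.55 ± 0.19 for Ahr (limma adjusted p = 0.418) and -0.62 ± 0.13 for Hsp90aa1 (limma adjusted p = 0.291), and in emigrants -0.74 ± 0.22 and -0.69 ± 0.20 (limma adjusted p = 0.825 and 0.805). The block called 0 genes in both comparisons. By the probe sets used, Ahr and Hsp90aa1 had an unadjusted limma p under 0.05 in both block fits. Arnt, Ncoa1 and Ncoa2 did not, and without the block 0 members did. The share of all genes under that cutoff with the block was not counted, so these members cannot be set against it. The block also assumes a pairing that no source states.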
